A study of Mus musculus with 6 samples.

Results

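The 48 genes described here encode the enzymes and carriers of the urea cycle and of the breakdown, transamination and synthesis of amino acids in the liver. They were chosen by function, from a written list of gene symbols, with earlier results of these data known. Every one of them was measured and tested, as 48 of the 18566 tested genes on the array. The urea cycle turns ammonia, which is toxic, into urea, and it runs mainly in the hepatocytes around the portal vein. The liver is also the main site where phenylalanine, tyrosine, tryptophan, histidine and methionine are degraded, and the carbon of most amino acids taken apart there enters glucose synthesis or the citric acid cycle. Serine, in contrast, can be made from an intermediate of glycolysis by the enzymes Phgdh, Psat1 and Psph, and it supplies one-carbon units to the folate cycle.

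Total RNA of 3 normal livers and 3 liver tumors of male C3H/HeN mice aged 74 to 75 weeks was compared on 6 one-color Agilent mouse arrays. C3H is an inbred strain in which liver tumors arise spontaneously with age. The animals were F2 offspring from the control arm of a breeding project, kept on standard diet and tap water, and the 3 tumors carried a mutation in Ha-ras, by the study's methods. Neither the labels nor the methods say whether a tumor and a normal liver came from the same mouse, or whether the 6 samples came from 6 mice, so the p-values measure only the spread between these samples. One slide held the 3 normal livers and another the 3 tumors, and an effect of the slide and one of the tissue cannot be told apart. Local background had a median of 42 to 45 on the slide of the normal livers and 22 to 23 on that of the tumors. Between 44.7% and 48.9% of the spots of an array were well above background, and precision is limited by the small number of arrays. The expression value of a probe is its processed signal divided by the 75th percentile of its array, on a linear scale, and values of different probes cannot be set against each other. Fold changes are on the log2 scale, tumor minus normal liver, from limma, and a gene was called at an adjusted p under 0.05 over all tested probes.

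Most of the 48 genes were expressed at lower levels in the liver tumors. Of the 48, 36 were called lower (75%), 3 were called higher and 9 were not called. Over all tested genes, 21% were called lower and 13.1% higher. At a change of 2-fold or more, 20 members were lower and 3 higher, where 6.84% of all genes were lower and 7.8% higher. In 39 members (81.25%) every tumor lay below every normal liver, as it did in 33.5% of all genes, and in 3 every tumor lay above, as in 18.3%. The median log2 fold change of the members was -0.81 and that of all tested genes was -0.13. The 3 members that rose were the 3 enzymes of serine synthesis, and leaving out the serine and asparagine synthesis group, 34 of 42 members were lower, none was higher in limma (0 also at an unadjusted p under 0.05), and the median was -0.87.

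**Figure D1:**
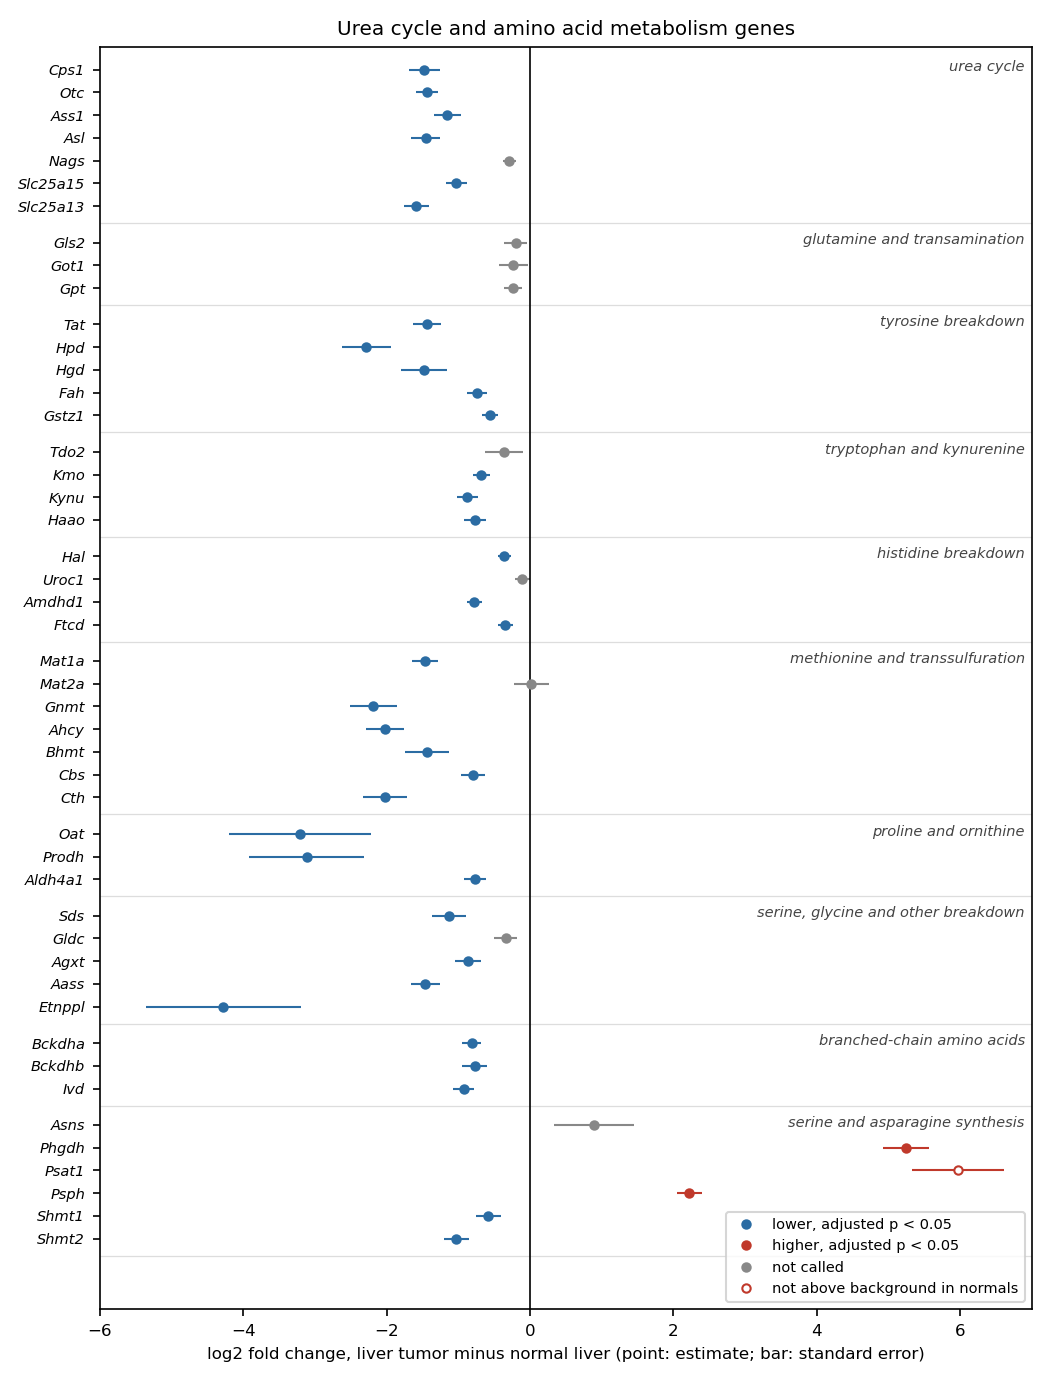
The log2 fold change (tumor minus normal liver, horizontal axis) of 47 of the 48 genes by role is drawn as a point with its standard error, colored by call at an adjusted p under 0.05, from 3 normal livers and 3 tumors. Outside the serine and asparagine synthesis group, all points but Mat2a (0.02) lie left of 0, and Phgdh, Psat1 and Psph lie at the right, where the open point of Psat1 is a fitted value against normal livers that were not well above background.

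The size of this difference depended on the scaling. Of all called genes, 61.5% were lower in the tumors, and 38.8% were lower when the arrays were scaled by their spike-in controls, which moved the median of all genes by 0.17 to 0.04. With that scaling 21 members were lower and the same 3 serine synthesis genes were higher, while 8.11% of all genes were lower. The 15 calls that were lost were of changes under 2-fold, and they included all those of tryptophan and histidine breakdown and, of the branched-chain genes, Bckdha and Bckdhb. Among them were also the calls of Fah, Gstz1, Cbs, Aldh4a1, Agxt and Shmt1. The median of the members minus that of all genes was -0.68. Spike-in scaling moves every gene alike and so could not change this value, which lay between -0.80 (without tumor 3) and -0.60 (with quantile normalization or without tumor 1) under the other alternatives.

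Genes of the urea cycle were lower almost throughout, with 6 of the 7 genes described here called and a median log2 fold change of -1.43 over the 7. Cps1, the mitochondrial carbamoyl phosphate synthetase that brings ammonia into the cycle, had expression values of 60.8, 72.5 and 76.5 in the normal livers and 18.8, 25.8 and 32.4 in the liver tumors. All 3 tumors were below all normal livers, and the level fell 2.78-fold (log2 fold change -1.48, SE 0.22, adjusted p = 0.0045 in limma). Otc, which joins carbamoyl phosphate to ornithine, had values of 86.8, 98.9 and 100.4 in the normal livers and 31.1, 33.2 and 42.5 in the liver tumors, a 2.70-fold fall (SE of the log2 value 0.15, adjusted p = 0.0016 in limma). A second probe of Otc fell 2.41-fold, and again the groups did not overlap.

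The pair of cytosolic enzymes that follows moved in the same way. Ass1, which condenses citrulline with aspartate, had values of 859, 942 and 876 in the normal livers and 308, 411 and 512 in the liver tumors, and Asl, which splits the product into arginine and fumarate, had 54.2, 65.4 and 56.7 in the normal livers and 16.2, 22.8 and 26.5 in the liver tumors. In both genes tumor 1 was the lowest and tumor 3 the highest of the tumors, and no tumor reached the normal range. Ass1 fell 2.22-fold (adjusted p = 0.0069 in limma) and Asl 2.74-fold (adjusted p = 0.0037). The carriers that feed the cycle fell as well. Slc25a13, or citrin, which exports aspartate from mitochondria, was at 41.0, 44.8 and 43.2 in the normal livers and 12.1, 13.5 and 18.1 in the liver tumors, and Slc25a15, which imports ornithine, was at 2.05, 2.47 and 1.98 in the normal livers and 0.920, 1.15 and 1.12 in the liver tumors. Again no tumor reached the normal range. The tumors were 3.0-fold and 2.04-fold lower, at adjusted p = 0.0016 and 0.0041 in limma.

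The activator of the cycle changed least of the 7. Nags, which makes the N-acetylglutamate that Cps1 requires, had values of 11.6, 11.5 and 11.9 in the normal livers and 9.69, 9.69 and 9.33 in the liver tumors. The groups did not overlap, but the log2 fold change of -0.29 did not pass the test (adjusted p = 0.063 in limma), although it did with a trend in eBayes (0.033) and in an unpaired t-test on linear values after Benjamini-Hochberg adjustment over all probes (0.015). It was -0.17 with quantile normalization and -0.12 with spike-in scaling (adjusted p = 0.21 and 0.82 in limma). On leaving out any 1 array the adjusted p was 0.11 to 0.15.

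**Figure D2:**
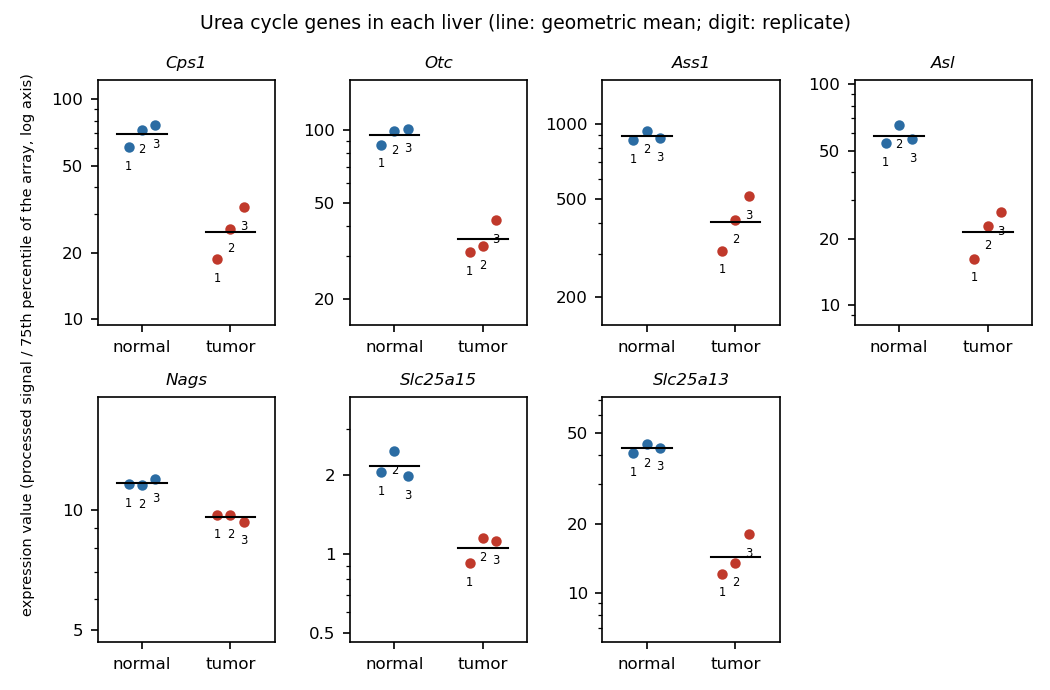
The expression value (processed signal divided by the 75th percentile of the array, log axis) of 7 urea cycle genes is plotted for each normal liver and liver tumor, with the replicate number under the point and a line at the geometric mean of the 3. The tumors lie below the normal livers in all 7 genes, with the narrowest gap in Nags.

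The 3 members that hand nitrogen between glutamate, glutamine and the keto acids did not pass the test. Gls2, the liver form of glutaminase that releases ammonia for the urea cycle, had values of 104, 141 and 119 in the normal livers and 106.8, 91.3 and 119 in the liver tumors, and the groups overlapped (log2 fold change -0.20, SE 0.16, and 0.012 with quantile normalization). Got1, the cytosolic aspartate aminotransferase, and Gpt, the alanine aminotransferase, had log2 fold changes of -0.23 and -0.24 with SEs of 0.21 and 0.13. Their mitochondrial counterparts Got2 and Gpt2 had log2 fold changes of -0.44 (adjusted p = 0.056) and -0.81 (adjusted p = 0.028 in limma). The log2 difference within an array changed by -0.20 for Got2 minus Got1 and by -0.57 for Gpt2 minus Gpt, each at p = 0.1 in a two-sided exact permutation test, the smallest that 3 against 3 samples allow, and 0.12 after Benjamini-Hochberg adjustment over 6 pairs of genes.

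All 5 enzymes of tyrosine breakdown were lower, with a median log2 fold change of -1.43. Hpd, which makes homogentisate, had values of 230.3, 275 and 237 in the normal livers and 29.5, 56.5 and 77.9 in the liver tumors, and it fell 4.88-fold (log2 fold change -2.29, SE 0.34, adjusted p = 0.0049 in limma). Tat, the tyrosine aminotransferase that starts the pathway and is induced by glucocorticoids and glucagon, had values of 77.8, 113 and 93.9 in the normal livers and 34.5, 29.4 and 41.6 in the liver tumors. Hgd, which opens the ring of homogentisate, had 37.0, 49.3 and 38.5 in the normal livers and 9.11, 16.2 and 21.8 in the liver tumors. In each of these 3 genes the highest tumor was well below the lowest normal liver. Tat fell 2.70-fold (adjusted p = 0.0035) and Hgd 2.80-fold (adjusted p = 0.016 in limma, and 0.056 without normal liver 2). The last steps changed less, with log2 fold changes of -0.74 for Fah, which releases fumarate and acetoacetate, and -0.56 for Gstz1, the maleylacetoacetate isomerase. The calls of Fah and Gstz1 were lost with spike-in scaling (adjusted p = 0.13 and 0.33 in limma).

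Of the 4 members of tryptophan breakdown, Tdo2, of the first step, did not pass the test and the others did. Tdo2, the dioxygenase that opens the ring of tryptophan, had values of 25.0, 29.3 and 21.9 in the normal livers and 13.1, 23.4 and 24.5 in the liver tumors, where tumor 1 was low and the other tumors were within the normal range. Kmo, Kynu and Haao, which carry kynurenine on towards quinolinate and NAD, were lower in all tumors, with log2 fold changes of -0.68, -0.87 and -0.77 (adjusted p = 0.0081, 0.0062 and 0.012 in limma). The difference between Tdo2 and the other 3 was not tested.

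The genes of histidine breakdown had, on their brightest probes, a median log2 fold change of -0.35. Hal, the histidase that makes urocanate, had values of 150.2, 145 and 148 in the normal livers and 115, 116 and 115 in the liver tumors, so that the tumors differed little among themselves. It was called lower at a 1.28-fold difference (adjusted p = 0.031 in limma), as was Ftcd, which passes the formimino group to folate (1.27-fold, adjusted p = 0.044). A second, dimmer probe of Hal fell 1.56-fold (adjusted p = 0.024). The calls of Hal, on its brighter probe, and Ftcd were lost on leaving out any 1 of the 6 arrays, with log2 fold changes that stayed between -0.38 and -0.30. Amdhd1, which acts between them, fell 1.71-fold (adjusted p = 0.0035), and Uroc1, the urocanase, had a log2 fold change of -0.11 that was 0.10 with quantile normalization.

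The methionine cycle and transsulfuration held several of the larger falls, with 6 of 7 genes lower and a median of -1.46. Mat1a, which makes S-adenosylmethionine in the adult liver, had values of 117, 169.8 and 151 in the normal livers and 47.9, 48.2 and 62.4 in the liver tumors, 2.76-fold lower in the tumors (adjusted p = 0.0028 in limma). Mat2a, which encodes the form made outside the liver and in growing hepatocytes, had 22.1, 18.7 and 24.9 in the normal livers and 31.7, 17.4 and 19.3 in the liver tumors. Here tumor 1 was above, tumor 2 below and tumor 3 within the range of the normal livers, and the log2 fold change was 0.02 (SE 0.25). Within each array, the log2 difference Mat2a minus Mat1a, set to a mean of 0 in the normal livers, was 2.14, 1.27 and 1.04 in the tumors against 0.32, -0.45 and 0.13 in the normal livers. The change of 1.48 gave p = 0.1 in the exact permutation test (0.12 adjusted over the pairs).

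Gnmt, which uses up S-adenosylmethionine by methylating glycine, had values of 480.2, 600.1 and 521 in the normal livers and 69.9, 132 and 173 in the liver tumors. Ahcy, which clears the S-adenosylhomocysteine left by methylation, had 38.0, 45.3 and 45.1 in the normal livers and 6.91, 12.7 and 13.3 in the liver tumors. In both genes tumor 1 was the lowest of the tumors, and no tumor reached the normal range. Gnmt fell 4.55-fold (adjusted p = 0.0048) and Ahcy 4.06-fold (adjusted p = 0.0032, limma), and the 2 other probes of Ahcy fell 3.68-fold and 4.42-fold. Bhmt, which remethylates homocysteine with betaine, had values of 1509, 1513 and 1179 in the normal livers and 344, 502 and 787 in the liver tumors, and its 4 probes all fell, with log2 fold changes from -2.55 to -0.97. The 2.71-fold fall of its brightest probe had an adjusted p of 0.014 in limma, and 0.051 without normal liver 2. Of the enzymes that turn homocysteine into cysteine, Cth, the second, had 103, 128 and 101 in the normal livers and 16.9, 30.5 and 38.4 in the liver tumors, a 4.07-fold fall (adjusted p = 0.0049). Cbs, the first, had 409, 469.9 and 423 in the normal livers and 206, 251 and 300.1 in the liver tumors, a 1.74-fold fall (adjusted p = 0.013).

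The falls with the widest range among the tumors were in proline and ornithine breakdown and in Etnppl. Oat, the ornithine aminotransferase, which in the liver is found mostly around the central vein, had values of 32.1, 51.1 and 59.7 in the normal livers and 0.919, 9.25 and 14.5 in the liver tumors. Prodh, the proline dehydrogenase, had 94.6, 100.1 and 80.6 in the normal livers and 2.65, 16.9 and 26.1 in the liver tumors. Etnppl, which breaks down phosphoethanolamine, was at 48.1, 59.6 and 53.3 in the normal livers and 0.410, 7.34 and 6.92 in the liver tumors. In all 3 genes tumor 1 was far below the other 2 tumors, which were themselves below every normal liver. The range among the tumors was 3.98, 3.30 and 4.16 on the log2 scale, against 0.54 as the median over the members.

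For Oat the log2 fold change was -3.21 (SE 0.99, adjusted p = 0.049 in limma), for Prodh -3.12 (SE 0.80, adjusted p = 0.028) and for Etnppl -4.28 (SE 1.08, adjusted p = 0.026). Without tumor 1 the falls were smaller and the p-values lower: 3.97-fold in place of 9.25-fold for Oat (adjusted p = 0.0095), 4.35-fold in place of 8.67-fold for Prodh (adjusted p = 0.0024) and 7.50-fold in place of 19.4-fold for Etnppl (adjusted p = 0.00033, limma). On leaving out normal liver 1, 2 or 3 the calls of all these genes were lost, at adjusted p between 0.067 and 0.12, and that of Oat also without tumor 2 (adjusted p = 0.066). With no filter on dim probes they were lost too, at adjusted p = 0.12 for Oat, 0.074 for Prodh and 0.070 for Etnppl in limma. Aldh4a1, the mitochondrial dehydrogenase that completes the conversion of proline and ornithine to glutamate, fell 1.70-fold (adjusted p = 0.011) with tumor values between 78.3 and 100.0.

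**Figure D3:**
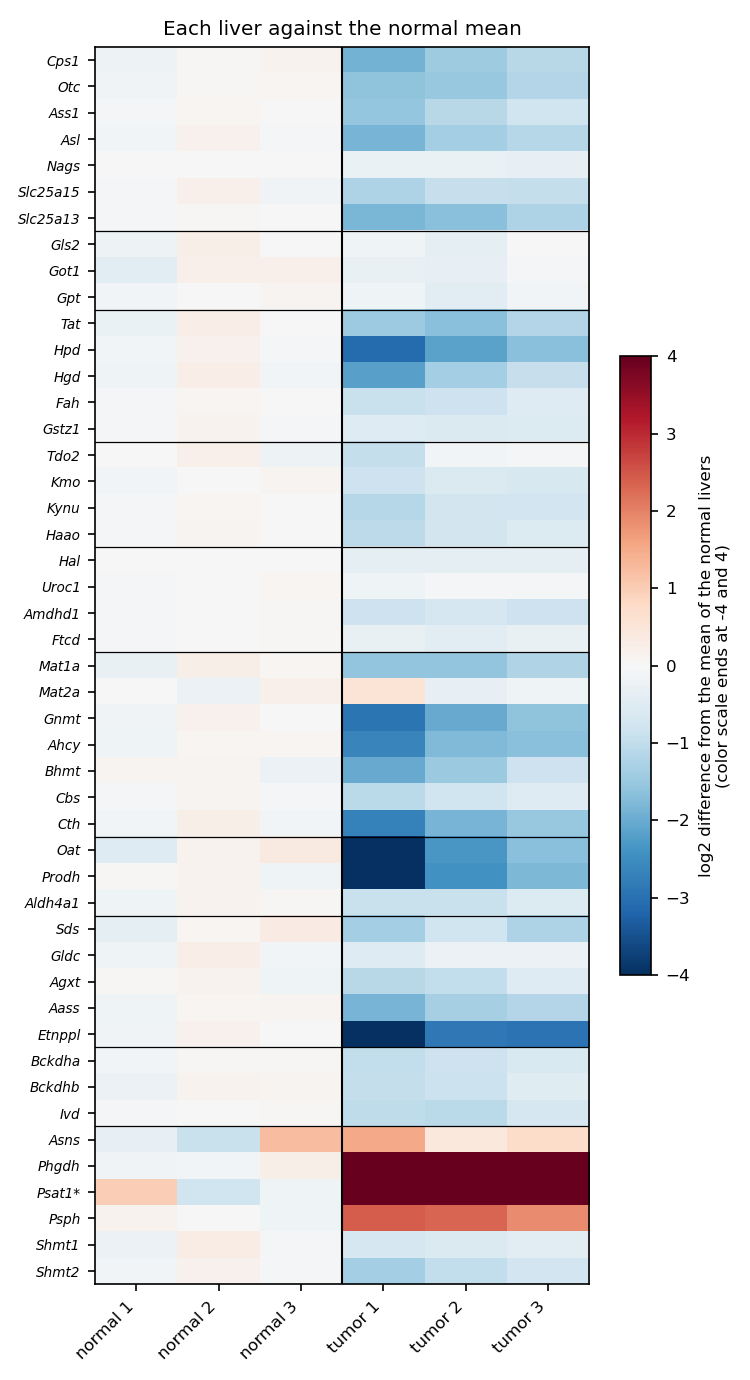
Each row is a gene, for 47 of the 48 genes in the order of their roles and each column 1 sample, colored by the log2 difference from the mean of the 3 normal livers, with the color scale ending at -4 and 4, and the asterisk marks Psat1, not well above background in the normal livers. The columns of the tumors are blue in most rows, darkest for tumor 1 in Oat, Prodh and Etnppl, and red for Phgdh, Psat1 and Psph.

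Of the other breakdown enzymes, Aass, which starts lysine breakdown, had values of 92.1, 109 and 113 in the normal livers and 28.5, 41.7 and 46.0 in the liver tumors (2.75-fold lower, adjusted p = 0.0039 in limma). Sds, the serine dehydratase that makes pyruvate from serine, had 22.5, 31.0 and 36.9 in the normal livers and 11.4, 17.1 and 12.6 in the liver tumors (2.19-fold lower, adjusted p = 0.013). No tumor reached the normal range in either gene. A second, dim probe of Sds was not well above background in the normal livers and gave no call (adjusted p = 0.25), the single member with probes that differed in direction or call among 14 with several tested probes. With the mean of both probes the log2 fold change of Sds was -0.28 in place of -1.13 and the call was lost (adjusted p = 0.22 in limma), as it was in the adjusted unpaired t-test (adjusted p = 0.074). Agxt, which detoxifies glyoxylate with alanine, fell 1.82-fold (adjusted p = 0.015, and 0.055 without normal liver 2). Gldc, the decarboxylase of the glycine cleavage system, had a log2 fold change of -0.34 that did not pass the test (adjusted p = 0.15).

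The 3 genes of branched-chain amino acid breakdown fell by similar amounts. Bckdha and Bckdhb, the subunits of the branched-chain keto acid dehydrogenase, had log2 fold changes of -0.82 and -0.77, and Ivd, which acts next on the leucine branch, of -0.93 (adjusted p = 0.0061, 0.018 and 0.0053 in limma). The call of Bckdhb was lost without normal liver 2, normal liver 3 or tumor 2, at adjusted p = 0.064, 0.057 and 0.056.

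Serine synthesis went the other way. Phgdh, which takes 3-phosphoglycerate out of glycolysis, had expression values of 0.148, 0.151 and 0.188 in the normal livers and 8.18, 7.72 and 3.63 in the liver tumors, and was well above background in 2 of the 3 normal livers and in every tumor. The lowest tumor was far above the highest normal liver, and the difference was 37.9-fold (log2 fold change 5.25, SE 0.32, adjusted p = 0.00023 in limma). On its second probe no normal liver was well above background, and the tumors were higher by at least 32.9-fold.

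Psat1, the aminotransferase of the second step, had values of 4.21, 5.32 and 1.33 in the liver tumors, while no normal liver was well above background. Its level in the tumors was at least 23.9-fold higher, where the bound sets the tumors against the lowest signal that counted as above background on the arrays of the normal livers. The adjusted p of 0.0017 in limma belongs to the fitted change against the dim signals of the normal livers, not to the bound. A dimmer second probe was at least 2.32-fold higher. Psph, the phosphatase that yields serine, had values of 2.52, 2.32 and 2.03 in the normal livers and 12.3, 11.5 and 8.52 in the liver tumors, a 4.67-fold rise (log2 fold change 2.22, SE 0.17, adjusted p = 0.00054), and 4.93-fold on its second probe. In all 3 genes tumor 3 was the lowest of the tumors, and all stayed called whichever array was left out. The calls of Phgdh and Psat1 were lost in an unpaired t-test on linear values after Benjamini-Hochberg adjustment over all probes (adjusted p = 0.053 and 0.11), and neither gene could be tested with the filter on all 6 arrays. With normexp background correction and an offset of 50 their log2 fold changes were 3.46 and 2.84, which for Psat1 is below the bound given.

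The genes that use serine did not rise with those that make it. Shmt1 and Shmt2, the cytosolic and mitochondrial enzymes that move a carbon from serine to folate, were both lower. Shmt2 had values of 31.3, 37.8 and 32.9 in the normal livers and 13.3, 17.3 and 20.0 in the liver tumors, a 2.04-fold fall (adjusted p = 0.0075 in limma), and Shmt1 a 1.49-fold fall (adjusted p = 0.040) whose call was lost without normal liver 2 or 3 or any 1 tumor, with log2 fold changes from -0.64 to -0.42. The within-array difference Shmt2 minus Shmt1 changed by -0.45, with p = 0.1 in the exact permutation test (0.12 adjusted over the pairs). Asns, the asparagine synthetase, had values of 3.16, 2.18 and 9.33 in the normal livers and 11.5, 5.35 and 6.72 in the liver tumors. Normal liver 3 was above 2 of the tumors, and the log2 fold change of 0.89 (SE 0.56) did not pass the test (adjusted p = 0.26), although without normal liver 3 it was 1.5 at an adjusted p of 0.038 in limma.

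**Figure D4:**
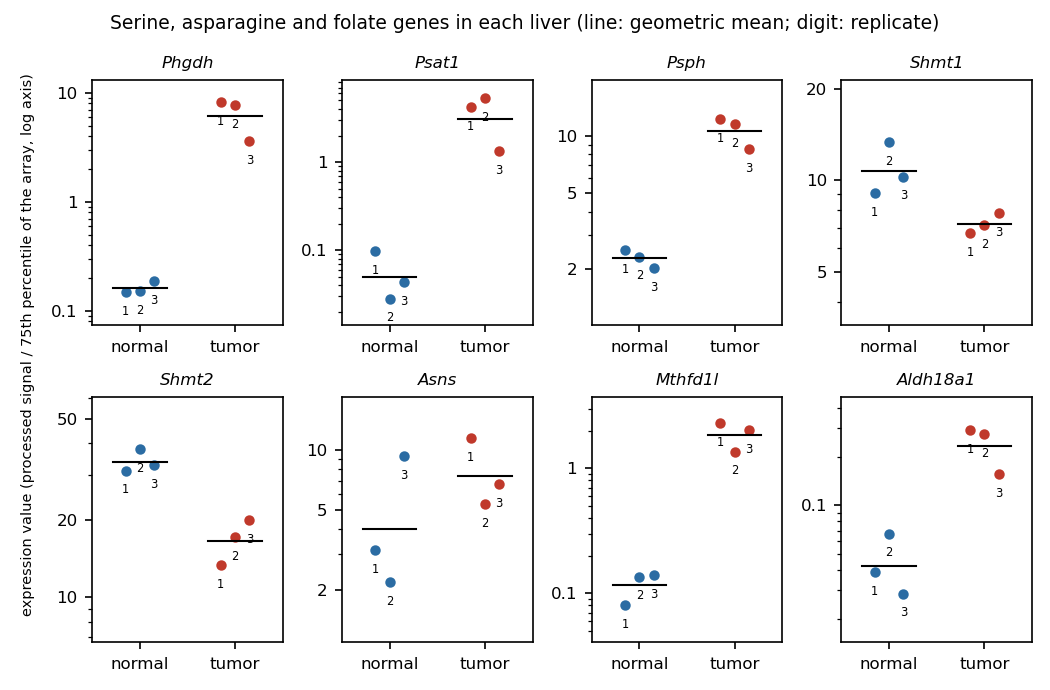
The expression value (processed signal divided by the 75th percentile of the array, log axis) of 6 member genes of serine and asparagine synthesis and of Mthfd1l and Aldh18a1 is plotted for each normal liver and liver tumor, with the replicate number under the point and a line at the geometric mean. The tumors lie above the normal livers for Phgdh, Psat1, Psph, Mthfd1l and Aldh18a1, below them for Shmt1 and Shmt2, and among them for Asns. The points of Psat1 and Aldh18a1 in the normal livers were not well above background.

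The promoters of the 3 genes that rose together are shown with that of Asns, which is regulated by amino acid supply, and that of Oat, one of the largest falls. Each sequence is the 150 bases before the annotated start in RefSeq (GRCm38.p6), on the strand of the gene: chr3:98339970-98340119, minus strand, for Phgdh, chr19:15925060-15925209, minus strand, for the one of 2 annotated starts of Psat1 with the most CCAAT matches, chr5:129787254-129787403, minus strand, for Psph, chr6:7693210-7693359, minus strand, for Asns and chr7:132576399-132576548, minus strand, for Oat. Capitals mark CCAAT, the box bound by NF-Y, or its reverse complement ATTGG in Phgdh, Psat1, Psph and Oat, and in Asns the letters TGATGNAA, the form of the amino acid response element bound by Atf4 with C/EBP proteins, where N is any base. The promoter of Asns holds no CCAAT, and no match of one motif overlaps one of the other in these sequences.
Phgdh: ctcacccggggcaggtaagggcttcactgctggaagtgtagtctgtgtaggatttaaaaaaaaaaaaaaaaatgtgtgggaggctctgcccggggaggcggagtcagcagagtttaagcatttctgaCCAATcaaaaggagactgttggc
Psat1: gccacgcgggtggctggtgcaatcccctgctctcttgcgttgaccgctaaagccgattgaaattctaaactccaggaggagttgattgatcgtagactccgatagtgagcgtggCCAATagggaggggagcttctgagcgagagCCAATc
Psph: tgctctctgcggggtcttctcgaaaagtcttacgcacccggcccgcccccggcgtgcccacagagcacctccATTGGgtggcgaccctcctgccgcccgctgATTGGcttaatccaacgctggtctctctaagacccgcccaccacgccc
Asns: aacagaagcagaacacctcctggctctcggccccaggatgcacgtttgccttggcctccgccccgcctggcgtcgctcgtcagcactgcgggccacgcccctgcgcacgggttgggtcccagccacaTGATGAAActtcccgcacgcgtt
Oat: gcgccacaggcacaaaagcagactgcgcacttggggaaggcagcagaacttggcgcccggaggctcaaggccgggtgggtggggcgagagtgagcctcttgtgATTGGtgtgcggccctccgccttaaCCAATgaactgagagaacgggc

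Promoters of 39 of the 48 members were in the table. In the 250 bases before the start, on either strand, CCAAT stood in the promoters of all 3 genes that rose, of 15 of 29 that fell and of 5 of 7 that were not called, and in those of 37.5% of all 27025 genes in the table, where a gene with several starts was counted once and as a match if any of its promoters held the letters. TGATGNAA stood in those of Asns and Got1, neither of which was called, and of 3.91% of all genes. A match of letters is a description of the sequence and shows no binding.

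Most of the other genes of amino acid metabolism that were tested were called lower too. Of 79 further genes of these pathways, 71 were tested, of which 44 were lower (62.0%, against 21% of all genes), 4 were higher and 23 were not called, with a median log2 fold change of -0.74. The breakdown of branched-chain amino acids had 13 of 16 tested genes lower, among them Ppm1k, the phosphatase that activates the keto acid dehydrogenase (log2 fold change -2.01, adjusted p = 0.0079 in limma), and Hibadh, of valine breakdown (-1.57, adjusted p = 0.0041). Bcat2, the mitochondrial aminotransferase of the first step, had -0.59, and its within-array difference from Bckdha changed by 0.23 with overlapping groups (p = 0.2, exact permutation test, also after adjustment over the pairs). All 3 lysine genes were lower, with Dhtkd1 at -1.86, but the call of Aldh7a1 was lost with spike-in scaling (adjusted p = 0.11 in limma). Of 13 tested genes of glycine, choline and glyoxylate metabolism 9 were lower, led by the betaine pathway enzymes Dmgdh (-1.72, adjusted p = 0.0035) and Sardh (-1.25, adjusted p = 0.0008).

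In the sulfur and tryptophan groups, Suox, the sulfite oxidase, had a log2 fold change of -1.72 and Cdo1, which oxidizes cysteine, of -1.41 (adjusted p = 0.017 and 0.0024 in limma), and 6 of 9 tested genes were lower, but 1 of 9 without normal liver 2 and 2 of 9 without normal liver 1. Afmid, which forms kynurenine, had -1.77 and Ido2 -1.43, with 3 of 6 tested genes of the group lower and Kyat1, Kyat3 and Acmsd not called, although a dimmer probe of Kyat3 was (adjusted p = 0.028). Of the arginine, creatine and polyamine genes 2 of 6 were lower, Car5a (-1.42), the mitochondrial carbonic anhydrase that provides bicarbonate to Cps1, and Gatm (-0.61). The call of Suox was lost without normal liver 1 or 2 (adjusted p = 0.050 and 0.057), that of Gatm without normal liver 2 (adjusted p = 0.067) and that of Gpt2 without normal liver 2 or 3 or tumor 1 or 2 (adjusted p up to 0.078). With spike-in scaling the calls of Gpt2, Gatm, Bcat2 and Mthfd1 were lost as well. Of the phenylalanine genes 2 of 3 were lower, of the glutamine, glutamate and alanine genes 3 of 7 (2 higher), of the proline synthesis and breakdown genes 1 of 4 (1 higher) and of the folate genes 2 of 4 (1 higher). Without normal liver 1, 2 or 3 or tumor 2 the count lower among the phenylalanine genes was 1 of 3, as the call of Qdpr was lost, and without normal liver 2 or 3 that among the glutamine genes was 1 of 7. The count higher among the glutamine genes was 1 of 7 without normal liver 1 or without tumor 2. Over all tested genes 21% were lower and 13.1% higher, and the shares of the arginine and proline groups were near these.

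Of the 4 further genes that rose, 3 were Glud1, Aldh18a1 and Mthfd1l. Glud1, the glutamate dehydrogenase, was at 205, 233 and 215 in the normal livers and 374, 341 and 289 in the liver tumors, a 1.53-fold rise (adjusted p = 0.016 in limma). Mthfd1l, the mitochondrial enzyme that releases formate from folate, had 0.0809, 0.136 and 0.141 in the normal livers and 2.32, 1.36 and 2.02 in the liver tumors, and rose 16.0-fold (adjusted p = 0.0004), with 1 of the 3 normal livers well above background. On a second probe of Mthfd1l no normal liver was, and the tumors were higher by at least 3.0-fold. With normexp background correction the log2 fold change of its brighter probe was 1.97, below the value that gives 16.0-fold. For Aldh18a1, the first enzyme of proline synthesis, no normal liver was well above background, and the tumors were higher by at least 1.79-fold. The adjusted p of 0.005 in limma belongs to the fitted change against those dim signals, not to the bound. With normexp background correction its log2 fold change was 0.43 (adjusted p = 0.041), which is below that bound, and its call was lost in the adjusted unpaired t-test (adjusted p = 0.052). Every tumor was above every normal liver in each of these 3 genes.

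The folate gene Mthfd1l thus rose while Mthfd1 and Aldh1l1, the cytosolic folate enzymes, had log2 fold changes of -0.76 and -1.0 (adjusted p = 0.010 and 0.0069 in limma). Mthfd2, the mitochondrial enzyme before Mthfd1l, had values of 0.267, 0.111 and 0.133 in the normal livers and 0.475, 0.313 and 0.201 in the liver tumors and was not called (adjusted p = 0.12).

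**Figure D5:**
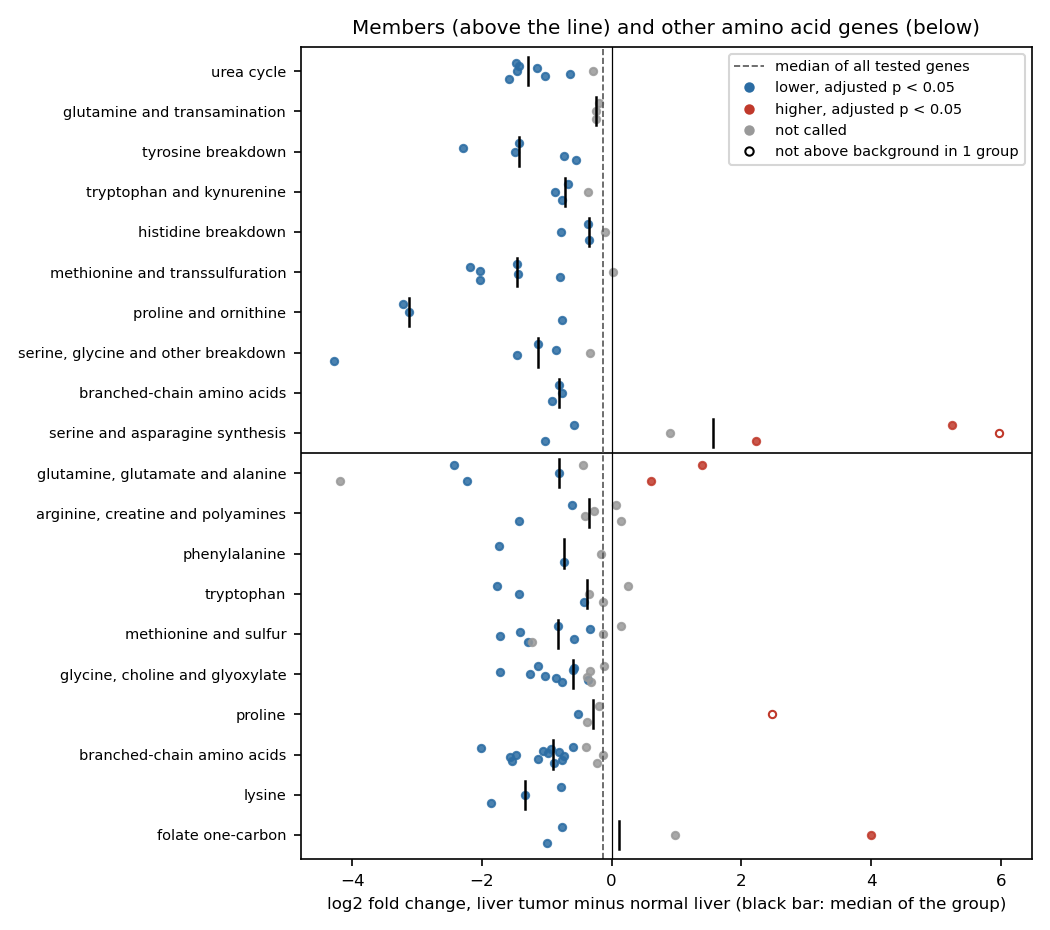
The log2 fold change (tumor minus normal liver) of each tested gene is plotted by role, with the 48 genes above the horizontal line and the further amino acid genes below it, a black bar at each group's median and a dashed line at the median of all tested genes, -0.13. Most group medians lie left of the dashed line, and those of serine and asparagine synthesis and of folate one-carbon genes lie right of it. Open points were not well above background in 1 group.

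Genes of both ends of the liver lobule were lower. Of 8 nitrogen genes that hepatocytes around the portal vein express most, 7 were lower (21% of all tested genes were) and the median log2 fold change was -1.14, with Gls2 the gene not called, and 4 of the 8 were lower without normal liver 1, 2 or 3. Of 4 that are expressed around the central vein, 3 were lower and the median was -2.82, which was -1.98 without tumor 1, while on leaving out normal liver 1, 2 or 3 only 1 of the 4, Rhbg, was called. Glul, the glutamine synthetase that captures the ammonia left by the urea cycle, had values of 45.2, 55.9 and 49.2 in the normal livers and 2.85, 15.5 and 17.8 in the liver tumors, with tumor 1 again far below the other tumors (5.41-fold lower, adjusted p = 0.035 in limma, and 3.01-fold without tumor 1). Its call was lost on leaving out normal liver 1, 2 or 3 (adjusted p = 0.081 to 0.096). The ammonia transporter Rhbg was at 6.27, 5.99 and 4.35 in the normal livers and 0.827, 1.36 and 1.42 in the liver tumors (4.68-fold lower, adjusted p = 0.0021). The glutamate transporter Slc1a2 was at 3.51, 5.45 and 5.40 in the normal livers and 0.0255, 0.90 and 0.757 in the liver tumors, with tumor 1 not well above background, and did not pass the test on its brightest probe (adjusted p = 0.052), while a dimmer probe was called lower (adjusted p = 0.0056, limma).

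Among the tumors, tumor 1 was most often the lowest. Relative to the mean of the normal livers, the median log2 value of the 36 members that were lower was -1.36 in tumor 1, -1.03 in tumor 2 and -0.82 in tumor 3, and it was between -0.10 and 0.13 in the normal livers. Tumor 1 was the lowest of the tumors in 86.1% of these members, and in 66.7% of all genes called lower. In 36 of the 48 members the range among the tumors was wider than among the normal livers, with medians of 0.54 and 0.31 on the log2 scale. Over all probes the tumor arrays correlated at 0.980 to 0.990 with each other, the normal livers at 0.989 to 0.992 and tumors with normal livers at 0.914 to 0.950.

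In bulk tissue, fewer cells of a type and less RNA per cell cannot be told apart, so cell type markers were read on the same arrays. The summed values given for them add the signals of different probes, so each is weighted towards its brightest probes and serves only to compare samples. On the brightest probe of each gene, none of 8 hepatocyte markers was lower in limma (0 also at an unadjusted p under 0.05) and 1, Apoa1, was higher (log2 fold change 0.90). A dimmer probe of Apob was called higher too (0.55, adjusted p = 0.046), and one of Apoa2 had -0.27 (unadjusted p = 0.035 and adjusted p = 0.086 in limma). The summed expression value of the 8 brightest probes was 10382 to 11554 in the normal livers and 10380.5 to 10899 in the tumors, with Alb the brightest, which had a log2 fold change of -0.06. Of 8 macrophage and Kupffer cell markers, 6 were lower (median log2 fold change -1.18, and 3 to 8 lower on leaving out 1 array), and their summed value was 101 to 173 in the normal livers and 51.4 to 84.7 in the tumors, with Cd5l the brightest. Of 7 stellate cell and fibroblast markers, 4 were lower and 2 higher (median -0.76), but 1 was higher without normal liver 1 or 3 or tumor 2 or 3. Their summed value was 81.1 to 100.1 in the normal livers and 23.0 to 43.1 in the tumors, with Dcn the brightest. Of 7 endothelial markers 2 were lower, a share near the 21% of all genes and 1 of 7 on leaving out any array but that of normal liver 1, with a median of -0.0079 and log2 fold changes of -0.78 for Stab2 to 1.5 for Lyve1. The 2 dimmer probes of Stab2 were not called (0.02 and 0.088, adjusted p = 0.95 and 0.81 in limma). The sum of the endothelial markers was 108 to 122 in the normal livers and 84.3 to 93.2 in the tumors. Cholangiocyte markers summed to 2.33 to 2.93 in the normal livers and 1.89 to 2.19 in the tumors, with no call in limma among 4 tested (0 also at an unadjusted p under 0.05). Neutrophil markers, with Csf3r the brightest, summed to 146 to 167 in the normal livers and 129 to 180.0 in the tumors, also with no call among 4 (1, Ly6g, at an unadjusted p under 0.05), and of Mpo 1 probe was above background in tumor 1 alone (0.209, against 0.0261 to 0.0361 on the other arrays) and the other on no array. Of 3 tested markers of T and B lymphocytes (median 0.80), Cd4 was called higher (log2 fold change 1.59, adjusted p = 0.0032 in limma), Cd79a was above every normal liver in every tumor without passing the test (0.80, adjusted p = 0.057), and Cd3e had 0.03. The sum of 65.2 to 69.1 in the normal livers and 140.4 to 244 in the tumors rested on 1 probe of Cd4, whose other probe was too dim to be tested, and Cd8a also stayed near background. The part of these other cell types in the results was not tested.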

How the data were processed

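Total RNA of 3 normal livers and 3 liver tumors was hybridised by the authors to one-color SurePrint G3 Mouse GE arrays. The deposited intensity of a spot is the processed signal of Feature Extraction (10.7.3.1 per the file headers, 12.0.3.1 by the submitters' processing notes), background subtracted and spatially detrended. A second file deposited by the authors holds the ratio of this signal to the 75th percentile of each array, and served as an alternative.

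From the intensities, each signal was divided by the 75th percentile of all spots on its array and log2 transformed. Spots of a probe were averaged, without control and outlier spots. A probe was tested if it was well above background in all 3 samples of a group, which held for 24898 of 55681 probes. They were compared with limma 3.58.1 (lmFit, eBayes, two-sided) in R 4.3.3, with Benjamini-Hochberg adjustment over all of them and a threshold of 0.05, and 8238 were called. The fit was tested on simulated data. A gene was represented by the tested probe that was brightest on average (mean log2 signal of all 6 arrays). Where no sample of a group was well above background for a probe, the fold is a lower bound, which sets the mean of the bright group against a floor. The floor of an array is the lowest signal that was well above background there, or the probe's own signal if that was higher. Probe names were taken through accessions for 27235 probes, symbols for 3581 and synonyms for 565 (RefSeq, GRCm38.p6), and kept as in the files for 24300. Promoter sequences are from the same annotation. Pairs of genes were compared by exact permutation over samples. Tables and figures were made in Python 3.11.15 (numpy 2.4.6, pandas 2.3.3, matplotlib 3.10.9, scipy 1.17.1).

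Alternatives were spike-in scaling, quantile normalization, normexp background correction with an offset of 50, no filter and a stricter filter on dim probes, the deposited table, eBayes with a trend, the replicate number as a block, the mean of a gene's probes, the methods' t-test (unpaired, and paired by replicate number), and leaving out each array. The 48 members and all other lists were chosen with earlier results of these data known. Some genes of these lists are counted but not reported individually here. All other members may be named, with values in every sample for those changed by 2-fold or more and for genes that define a role. Of each other list the genes with the largest called change, up to 4, and a set of well-known genes were eligible.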

Additional observations from a re-analysis of the deposited data

How the results depend on the processing

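All 39 called members kept their direction under every alternative in which they were tested, which for Phgdh and Psat1 leaves out the filter on all 6 arrays, and 28 stayed called without any 1 array. Counts of 36 members and 44 further genes called lower became 21 and 25 with spike-in scaling, 23 and 28 without the filter on dim probes, and 20 and 22 under the methods' t-test, run unpaired, with their 2-fold and expression criteria, where 1 further gene was higher. The share of all tested genes called lower, 21% in the main fit, became 8.11%, 8.48% and 4.48% under these 3 alternatives. Called higher were 1 member and 2 further genes, in place of 3 and 4, both with the filter on all 6 arrays, which tests fewer genes, and after Benjamini-Hochberg adjustment of that t-test. Of all tested genes, 1939 of 16482 and 1372 of 18566 were then higher, against 2441 of 18566 in the main fit. The methods name a paired test but not what was paired. Paired by replicate number, an alternative chosen after seeing the data, the t-test with the 2-fold and expression criteria gave 18 members and 21 further genes lower and 2 and 1 higher, and after Benjamini-Hochberg adjustment it gave 0 in each case (at an unadjusted p under 0.05, 33 and 45 lower and 2 and 2 higher). Of all 18566 tested genes, this paired test with the criteria gave 722 lower and 590 higher. After the adjustment it called 0 of all these genes. The cause of the other changes was not tested. Among the members that lost their call were Hgd, Gstz1, Haao, Hal, Ftcd, Cbs, Oat, Prodh, Agxt, Etnppl, Bckdhb and Shmt1 without the filter, Hal, Ftcd, Oat and Shmt1 with quantile normalization, Ftcd and Shmt1 with normexp, Sds with the mean of probes, and Oat, Sds, Bckdhb, Phgdh, Psat1 and Shmt1 in the adjusted unpaired t-test. Nags and Got2 were called with a trend in eBayes, Nags in the adjusted unpaired t-test and Got2 with the filter on all 6 arrays and without tumor 3. Some genes that were not called changed sign: Gls2 (0.012), Uroc1 (0.10) and Atf4 (0.14) with quantile normalization, Uroc1 (0.059) and Atf4 (0.10) with spike-in scaling, which moves every gene by 0.17, and, over the fits without 1 array, Mat2a (-0.24 to 0.19) and Atf4 (-0.27 to 0.091). Without 1 array, 25 to 33 members were lower and 3 or 4 higher. Normal liver 2 mattered most, with 11 calls lost without it, and 4 were lost without tumor 1. Of all tested genes, 10.8% were lower without normal liver 2. The share was 13.9% to 18% without any 1 other array and 21% with all arrays.

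With the replicate number as a block, 33 members were lower, 3 were higher, and Hal, Ftcd and Shmt1 were no longer called. Of all tested genes, 17.3% were lower with the block. Samples of the same number deviated from their group means with correlations of 0.07, 0.13 and 0.05. Not all were over 0.1, so the numbers were not used to pair samples, although a shared mouse cannot be told from these values. Probes near background limit the precision of Psat1, Phgdh, Mthfd1l and Aldh18a1 in the normal livers.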

Other observations

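Among the regulators of amino acid metabolism, the share of called genes was near that of all tested genes (34.2%) or below it. Of 8 genes of the Atf4 response, by which cells answer a shortage of amino acids, Trib3 and Sesn2 were higher, Cebpb was lower and 5 were not called. Trib3, a pseudokinase, had values of 3.61, 6.43 and 8.33 in the normal livers and 36.5, 26.4 and 31.7 in the liver tumors, a 5.40-fold rise with no overlap (adjusted p = 0.0031 in limma). Sesn2, a sensor of leucine, rose 1.67-fold (adjusted p = 0.022), and Cebpb, a partner of Atf4, fell 1.67-fold (adjusted p = 0.042). The call of Sesn2 was lost without normal liver 1, 2 or 3 or tumor 2, and that of Cebpb on leaving out each array except that of tumor 1, at adjusted p up to 0.065 and 0.12. Atf4 itself, which is regulated mostly by translation, had values of 170.4, 115 and 129 in the normal livers and 171, 119 and 107.3 in the liver tumors, with overlapping groups and a log2 fold change of -0.07 (SE 0.23).

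Of 9 genes of the hepatic program that drives amino acid breakdown, 1 was lower (2 without normal liver 1), where 21% of all tested genes were lower. Creb3l3, a liver transcription factor of the fasting response, had values of 165, 173 and 173 in the normal livers and 123, 99.0 and 104 in the liver tumors, a 1.57-fold fall (adjusted p = 0.0096 in limma). With spike-in scaling the calls of Creb3l3 and Cebpb were lost. Klf15, an inducer of amino acid breakdown, had values of 6.08, 11.6 and 10.4 in the normal livers and 4.95, 4.82 and 5.79 in the liver tumors, with the tumors below the normal livers but an adjusted p of 0.051. Hnf4a and Cebpa, which maintain the hepatocyte program, had log2 fold changes of 0.16 (SE 0.14) and -0.40 (SE 0.25), neither of which passed the test.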
